A study of Mus musculus with 4 samples.

Results

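The genes described here encode neuropeptide precursors and granins, the proteins that neurons store in dense-core vesicles. They were taken by symbol from the count tables as a list of 10, *Penk*, *Pdyn*, *Pnoc*, *Crh*, *Adcyap1*, *Cort*, *Tac2*, *Nts*, *Chgb* and *Scg3*, among 23420 gene symbols. Of these, 8 encode precursors of classical neuropeptides. *Chgb* (chromogranin B) and *Scg3* (secretogranin III) encode granins, which help to form the vesicles and sort their cargo, so the name neuropeptide precursor fits those genes less closely. All 10 passed the filter on low counts, among 16232 genes tested.

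RNA-seq was performed on punches of prefrontal cortex (PFC) from C57BL6/J mice, in 2 samples injected with control AAV9 and 2 samples injected with *Ash1L* shRNA AAV9. Ash1L is a histone methyltransferase and a risk factor for autism, and the comparison asks how its knockdown in PFC changes gene expression. The labels call the control virus a GFP AAV9, whereas the methods describe a scrambled shRNA. The shRNA was expressed from a U6 promoter, which is active in any cell type that the virus enters, in a GFP-tagged vector. The mice were wild type and 6 to 8 weeks old by the labels. The methods describe pools of 3 mice for each sample, while the series text counts 3 knockdown and 2 GFP mice in all. The punches contained GFP fluorescence but were whole tissue with uninfected cells. In such bulk tissue, fewer cells of a type and less RNA per cell cannot be told apart.

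Neuropeptides are made as long precursor proteins that are cut at pairs of basic residues by prohormone convertases, trimmed by carboxypeptidase E and often amidated, while they travel in dense-core vesicles. They are released mainly during sustained firing and act on G protein-coupled receptors. In the cortex, several of these precursors are known from subsets of GABAergic interneurons. Transcription of several precursor genes is known to follow neuronal activity.

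The samples held between 14251190 and 35764874 counts. *Ash1l* itself was at 245 and 290.1 CPM (counts scaled to the TMM-normalized library size) in control samples 1 and 2, and at 216 and 138 CPM in *Ash1L* shRNA samples 1 and 2. The fall was larger in sample 2. *Ash1L* shRNA sample 2 stood apart from the other samples in other respects. Its activity-regulated genes, a list of 17 that includes *Fos*, *Npas4* and *Arc*, summed to 5454 CPM, against 1161 to 1683 CPM in the other samples. Its microglia markers, a list of 7 with none at 0, summed to 375 CPM, against 724 to 921 CPM. Defining markers of cortical excitatory neurons (*Slc17a7*, 754 to 1069 CPM) and interneurons (*Gad1*, 232 to 280 CPM) were present in every sample. Each of the 10 genes is therefore given with and without sample 2, and the calls in other gene lists that were lost without it are named beside them.

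The opioid precursors share a sequence feature that the choice of genes did not use. *Penk* (preproenkephalin) codes for the enkephalin core in 7 copies, of which 5 have a basic pair on both sides, and *Pdyn* (prodynorphin) codes for it in 3 copies, all 3 with such pairs. *Pnoc* (prepronociceptin) codes for a related core, that of nociceptin, in 1 copy. *Cort* (cortistatin) codes for the short core that cortistatin has in common with somatostatin, also in 1 copy. The coding stretches were read from GENCODE vM21 transcripts and are shown because they show how these precursors are related. The core is in capitals, and the codons before and after it are in lower case. The stretches lie in the second coding exon of each gene, at chr4:4134328-4134354 (*Penk*), chr2:129688232-129688258 (*Pdyn*), chr14:65404875-65404898 (*Pnoc*) and chr4:149125276-149125299 (*Cort*) of mm10, all on the minus strand.
Penk: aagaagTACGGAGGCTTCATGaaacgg
Pdyn: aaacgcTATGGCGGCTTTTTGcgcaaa
Pnoc: aaaaggTTTGGGGGCTTCaccggg
Cort: aacttcTTCTGGAAAACCttctcc

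RefSeq promoter sequences (GRCm38.p6, 250 bases before to 50 after the start) were matched by symbol for 7 of the 10 genes, in 9 promoters. *Penk*, *Crh* and *Pnoc* had no entry. A gene was counted when any of its promoters held the motif, whereas the percentages are of single promoters, which came from 27025 genes. The counts and percentages are therefore in unlike units. The letters TGACGTCA, the cAMP response element (CRE) that activity-dependent factors are known to bind, were found on either strand in 1 of the 7 genes, *Chgb*, and in 1.79% of all 32851 promoters. The shorter CRE core TGACG, which every full CRE also contains, was found on either strand in 5 of the 7 genes and in 20.8% of all promoters. The sites of *Chgb* (chr2:132781559-132781588, plus strand, first capital 72 bases before the start), *Adcyap1* (chr17:93198914-93198943, plus strand, 91 bases before), *Scg3* (chr9:75684069-75684098, minus strand, 30 bases before) and *Cort* (chr4:149126764-149126793, minus strand, 18 bases before) are shown, with the motif in capitals, because they lie nearest to a start. *Nts* held the core farther from its start, 166 bases before it. Also on either strand, the AP-1 site TGANTCA was found in *Nts* alone and in 7.81% of all promoters, and the TATA box TATAAA in *Adcyap1* alone and in 13.6% of all promoters. None of these motifs was found in *Pdyn* or *Tac2*.
Chgb: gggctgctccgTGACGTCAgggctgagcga
Adcyap1: ggactaggatgcTGACGtcttttactgata
Scg3: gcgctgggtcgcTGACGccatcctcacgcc
Cort: ctccggcttgtgCGTCAccgcgtgagtgtg

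Per length of exons, the genes spanned a wide range of levels in control PFC. *Chgb* was highest, at 200 ± 55.4 (SD, n = 2) RPKM (CPM per kilobase of exons), followed by *Scg3* at 102 ± 6.38 and *Penk* at 24.4 ± 5.31 RPKM. *Adcyap1* at 8.74 ± 0.687 RPKM and *Cort* at 7.73 ± 1.64 RPKM overlapped between samples, so their order is not resolved. The same holds for *Pdyn* (3.67 ± 0.646 RPKM), *Tac2* (3.17 ± 0.487 RPKM), *Crh* (2.78 ± 0.171 RPKM) and *Pnoc* (2.55 ± 0.856 RPKM), where each gene overlapped the next in the order. *Nts* was lowest, at 0.609 ± 0.344 RPKM. *Chgb* and *Scg3* together made up 83.9% to 89.2% of the summed CPM of the 10 genes. In *Ash1L* shRNA samples the order was the same from *Chgb* to *Adcyap1*, with *Chgb* at 254 ± 1.81 RPKM and *Adcyap1* at 17.9 ± 2.48 RPKM, and *Cort* at 18.7 and 6.49 RPKM overlapped with *Adcyap1* at 19.6 and 16.1 RPKM.

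**Figure D1:**
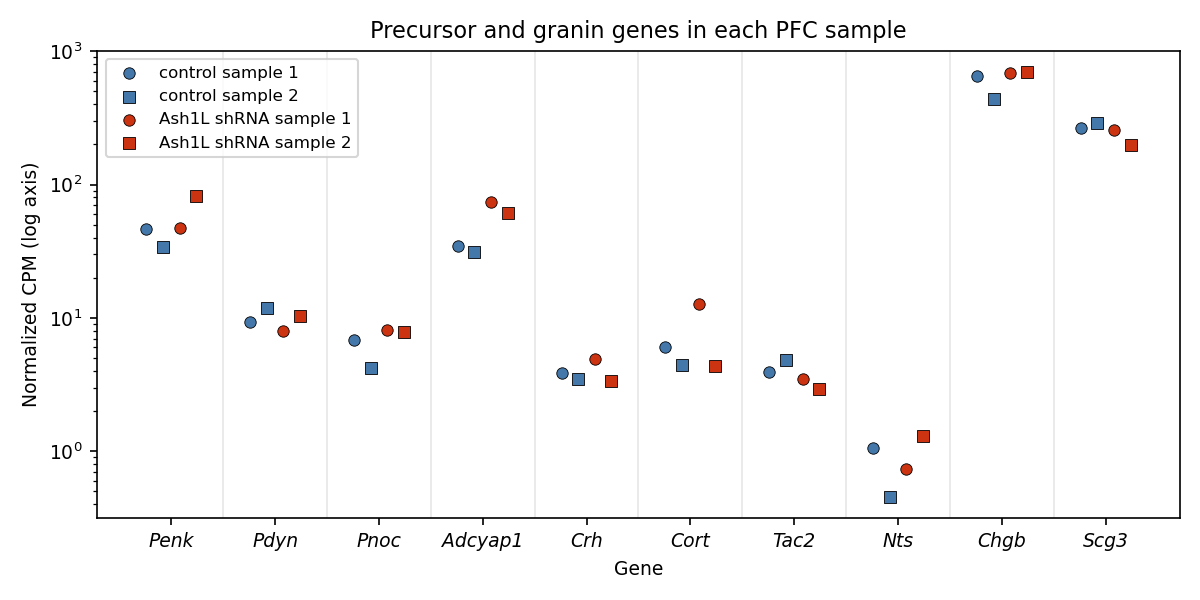
Normalized CPM of the 10 genes (log axis) in each of the 4 PFC samples, with control samples in blue and *Ash1L* shRNA samples in red. *Adcyap1* is higher in both *Ash1L* shRNA samples (74.1 and 60.9 CPM) than in both control samples, *Penk* stands out only in *Ash1L* shRNA sample 2 and *Cort* only in *Ash1L* shRNA sample 1.

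*Ash1L* shRNA samples were then compared with control samples. Genes were called UP or DOWN at an unadjusted p under 0.05 and at least a 1.2-fold change. *Adcyap1* was called UP and no gene of the 10 was called DOWN, where 8.61% of all genes tested were UP and 8.28% were DOWN, so the numbers of called genes were near those of the background. By the quasi-likelihood test of edgeR, an adjusted p under 0.05 was found for 0 of the 10 and for 0.00616% of all genes, and *Adcyap1* alone had an unadjusted p under 0.05. With DESeq2, *Adcyap1* had an adjusted p of 3.08e-05 and *Penk* was also UP, at an unadjusted p of 0.0151. Normalized counts did not overlap between the groups for 6 of the 10 genes, 4 higher and 2 lower, beside 53.2% of all genes tested in either direction. The median log2 fold change of the 10 genes was 0.43, and that of all genes tested was -0.0027. The log2 fold change was below 0 for 3 of the 10 and for 50.3% of all genes. The median was 0.10 without control sample 2, 0.81 without control sample 1, 0.15 without *Ash1L* shRNA sample 1 and 0.30 without *Ash1L* shRNA sample 2. With 2 samples in each group, a two-sided permutation test cannot give a p below 0.333.

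**Figure D2:**
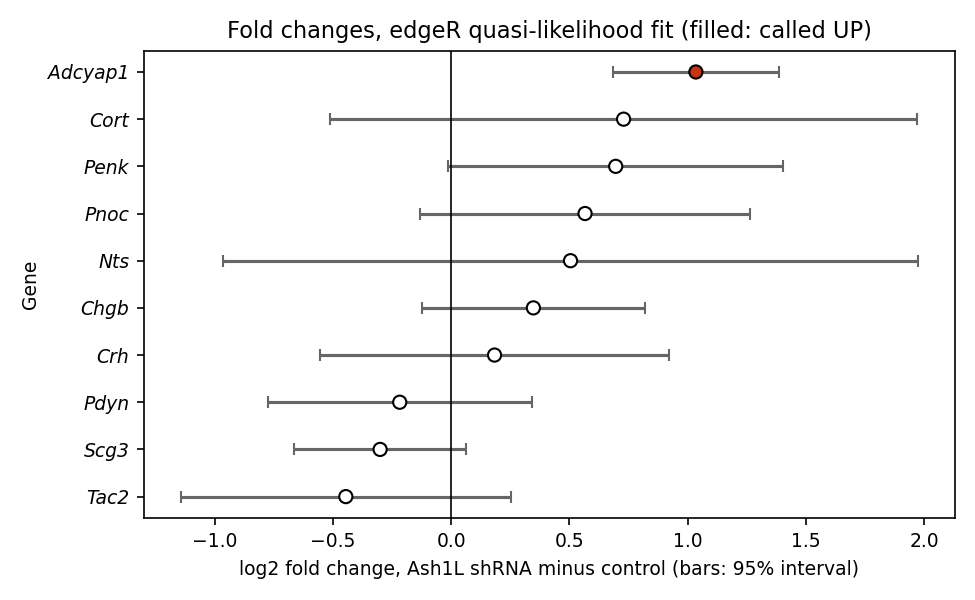
Log2 fold change of each of the 10 genes, *Ash1L* shRNA minus control, from edgeR's quasi-likelihood fit, with bars for the 95% interval. Only the interval of *Adcyap1*, from 0.68 to 1.39, lies wholly above 0, while that of *Penk* reaches -0.01.

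*Adcyap1* (ENSMUSG00000024256, chromosome 17 from 93199017 to 93206537) encodes PACAP, a peptide that raises cAMP through its receptors and is known from excitatory neurons as well as from the hypothalamus. It was at 34.9 and 31.2 CPM in control samples 1 and 2, and at 74.1 and 60.9 CPM in *Ash1L* shRNA samples 1 and 2. Both *Ash1L* shRNA samples were about equally high and the groups lay well apart. The fold change was 2.05 (log2 fold change 1.03, standard error 0.15), with an adjusted p of 0.234 in edgeR's quasi-likelihood test after Benjamini-Hochberg adjustment. Across all genes tested, 95.9% had a log2 fold change no higher than that of *Adcyap1*. It was called UP under every one of the 13 alternatives run, with log2 fold changes from 0.88 to 1.17 and adjusted p-values from 3.08e-05 to 0.870. The difference was as large without *Ash1L* shRNA sample 2, the sample with high activity-regulated genes (log2 fold change 1.17). The receptor for PACAP, *Adcyap1r1*, was at 196 and 179 CPM in control and at 203 and 217.5 CPM in *Ash1L* shRNA samples (log2 fold change 0.17) and was not called. The receptors *Vipr1* and *Vipr2*, which bind PACAP and VIP, were not called either.

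*Penk* (ENSMUSG00000045573, chromosome 4 from 4133531 to 4138819) was at 46.1 and 33.8 CPM in control samples 1 and 2, and at 47.2 and 81.7 CPM in *Ash1L* shRNA samples 1 and 2. *Ash1L* shRNA sample 1 lay just above control sample 1, and sample 2 was 2.05 times the control mean. The log2 fold change was 0.70 (standard error 0.29), with an unadjusted p of 0.0529 in edgeR's quasi-likelihood test (adjusted p = 0.301). Without *Ash1L* shRNA sample 2 the log2 fold change was 0.25. Without *Ash1L* shRNA sample 1 it was 1.04 and the gene was called UP, in a fit that left only sample 2 in that group. It was 0.94 without control sample 1 and 0.48 without control sample 2, and was not called in either case. In its exons, 14.3% of the bases (233 bases) overlap a noncoding transcript on the opposite strand, A830012C17Rik, and no strand setting of the counting is stated. *Penk* is also known as a gene of striatal neurons. Of 10 striatal markers tested, 2 were UP (*Drd2* and *Rgs9*). Without *Ash1L* shRNA sample 2, *Drd2* went from 1.29 to 0.59 on the log2 scale and was not called, and *Rgs9* from 0.96 to 0.43 and was still UP. The list summed to 191 and 213 CPM in control and to 188 and 217 CPM in *Ash1L* shRNA samples. The defining striatal factors *Isl1* and *Six3* had between 0 and 14 counts in any sample, with the 14 of *Isl1* in *Ash1L* shRNA sample 2. The part of these cells and of activity-regulated genes in the value of *Penk* was not tested.

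*Pdyn* (ENSMUSG00000027400, chromosome 2 from 129686565 to 129699844), the precursor of the dynorphins, was at 9.28 and 11.9 CPM in control and at 8.00 and 10.4 CPM in *Ash1L* shRNA samples. The groups overlapped, with a log2 fold change of -0.22 and a 95% interval from -0.78 to 0.34. It was -0.42 without *Ash1L* shRNA sample 2, -0.05 without *Ash1L* shRNA sample 1, -0.37 without control sample 1 and -0.02 without control sample 2. *Pnoc* (ENSMUSG00000045731, chromosome 14 from 65400673 to 65425472) was at 6.80 and 4.19 CPM in control and at 8.14 and 7.86 CPM in *Ash1L* shRNA samples. The *Ash1L* shRNA samples were close to each other, and the gap to control sample 1 was smaller than the gap between the control samples. Its log2 fold change was 0.57 (standard error 0.29), with an adjusted p of 0.358 in edgeR's quasi-likelihood test. Without control sample 1 it was 0.94, which was called UP, and without control sample 2 it was 0.23. It was 0.61 without *Ash1L* shRNA sample 2. No opioid receptor gene was called. *Oprd1* (delta), *Oprm1* (mu), *Oprk1* (kappa) and *Oprl1* (the nociceptin receptor) had log2 fold changes of -0.17, 0.17, -0.64 and -0.13, and *Oprk1* was at 9.13 and 3.18 CPM in *Ash1L* shRNA samples 1 and 2.

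*Crh* (ENSMUSG00000049796, chromosome 3 from 19693401 to 19695396), which encodes corticotropin-releasing hormone, was at 3.83 and 3.51 CPM in control and at 4.89 and 3.38 CPM in *Ash1L* shRNA samples. The groups overlapped and the log2 fold change of 0.18 had a 95% interval from -0.56 to 0.92. It was -0.12 without *Ash1L* shRNA sample 1 and 0.43 without *Ash1L* shRNA sample 2. The gene for its binding protein, *Crhbp*, was called UP, at 32.5 and 19.1 CPM in control and 57.7 and 43.2 CPM in *Ash1L* shRNA samples (log2 fold change 0.99, standard error 0.28, adjusted p = 0.260, edgeR's quasi-likelihood test). The receptor gene *Crhr1* had a log2 fold change of -0.43 and was not called.

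*Cort* (ENSMUSG00000028971, chromosome 4 from 149125034 to 149126763) is known from cortical interneurons, many of which also contain somatostatin. It was at 6.02 and 4.45 CPM in control, at 12.7 CPM in *Ash1L* shRNA sample 1 and at 4.39 CPM in *Ash1L* shRNA sample 2. The *Ash1L* shRNA samples thus lay above and below the control samples, with a log2 gap of 1.53 between them, the largest among the 10 genes. The log2 fold change was 0.73 (standard error 0.50). It was 1.30 and called UP without *Ash1L* shRNA sample 2, and -0.24 without *Ash1L* shRNA sample 1. *Sst*, the related gene for somatostatin, was called DOWN, with 121 and 108 CPM in control and 93.5 and 54.9 CPM in *Ash1L* shRNA samples and a log2 fold change of -0.62. That value was -0.29 without *Ash1L* shRNA sample 2, and the call was lost. Of the 5 somatostatin receptor genes, *Sstr1* to *Sstr5*, none was called.

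*Tac2* (ENSMUSG00000025400, chromosome 10 from 127724478 to 127731768), the precursor of neurokinin B, was at 3.90 and 4.85 CPM in control and at 3.51 and 2.94 CPM in *Ash1L* shRNA samples. Both *Ash1L* shRNA samples were lower, but the log2 fold change of -0.45 had a 95% interval from -1.14 to 0.25 and an adjusted p of 0.453 in edgeR's quasi-likelihood test. It was -0.33 without *Ash1L* shRNA sample 2, -0.59 without *Ash1L* shRNA sample 1 and -0.27 without control sample 2. Its receptor gene *Tacr3* had between 10 and 25 counts. *Tacr2*, for the receptor preferred by neurokinin A, was called UP from 8 and 17 counts in control to 63 and 35 counts in *Ash1L* shRNA samples (log2 fold change 1.94). *Nts* (ENSMUSG00000019890, chromosome 10 from 102481756 to 102490486), the precursor of neurotensin, had 15 and 16 counts in control and 20 and 27 counts in *Ash1L* shRNA samples. A count of 15 has an exact 95% Poisson interval from 8.40 to 24.7 and one of 27 an interval from 17.8 to 39.3 (unscaled counts, counting error only). The fitted log2 value was 0.50 (standard error 0.61), 1.15 without control sample 1 and -0.08 without control sample 2. It was 0.89 without *Ash1L* shRNA sample 1 and 0.07 without sample 2. The neurotensin receptor genes *Ntsr2* and *Sort1* (sortilin, which also sorts other proteins) were called DOWN, with log2 fold changes of -0.94 and -0.81. A further neurotensin receptor gene, *Ntsr1*, had a log2 fold change of -0.56 and was not called. *Ntsr2* is a receptor known from astrocytes. Of 9 astrocyte markers, 5 were DOWN and 3 had a log2 fold change above 0, among them *Gfap* at 0.0007. The list summed to 4808 and 5125 CPM in control and to 4028 and 3123 CPM in *Ash1L* shRNA samples. Most of each sum was *Slc1a2*, at 3159 and 3467 CPM in control and 2757 and 2013 CPM in *Ash1L* shRNA samples. The part of astrocytes in the fall of *Ntsr2* was not tested.

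The granins *Chgb* and *Scg3* had fitted log2 fold changes of opposite sign, and neither was called with all samples. *Chgb* (ENSMUSG00000027350, chromosome 2 from 132781278 to 132795079) was at 654 and 439.5 CPM in control and at 692 and 699 CPM in *Ash1L* shRNA samples. The *Ash1L* shRNA samples nearly coincided, and control sample 2 was the low one. The log2 fold change was 0.35 with a 95% interval from -0.12 to 0.82. It was 0.08 without control sample 2, and 0.67 and called UP without control sample 1. It was 0.34 without *Ash1L* shRNA sample 2. *Scg3* (ENSMUSG00000032181, chromosome 9 from 75643189 to 75684056) was at 267 and 292 CPM in control and at 255 and 198.5 CPM in *Ash1L* shRNA samples. *Ash1L* shRNA sample 1 was close to the controls and sample 2 lower. The log2 fold change was -0.30 with a 95% interval from -0.67 to 0.06 and an adjusted p of 0.352 in edgeR's quasi-likelihood test. It was -0.13 without *Ash1L* shRNA sample 2, and -0.50 and called DOWN without *Ash1L* shRNA sample 1.

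**Figure D3:**
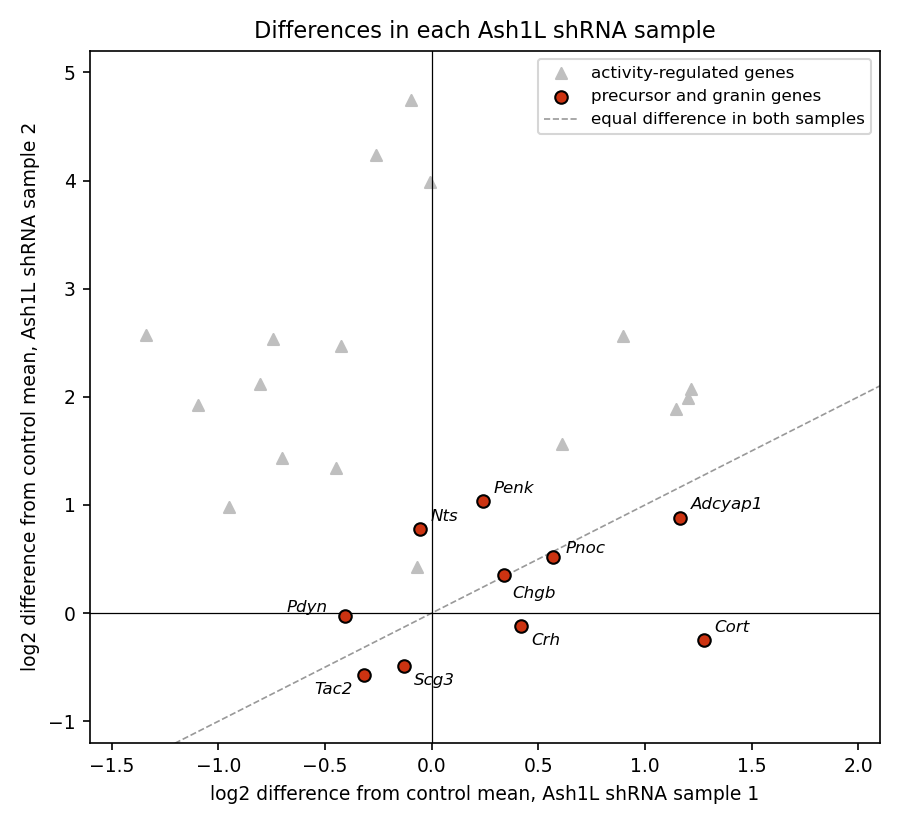
Log2 difference from the control mean in *Ash1L* shRNA sample 1 (x axis) and sample 2 (y axis) for the 10 genes (red) and for 17 activity-regulated genes (grey triangles), with the dashed line marking equal differences. *Adcyap1*, *Pnoc* and *Chgb* lie near the line, *Penk* and *Nts* above it and *Cort* and *Crh* below it, while most activity-regulated genes are high in sample 2 alone.

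The 10 genes fell into different patterns over the *Ash1L* shRNA samples. *Adcyap1* (log2 differences from the control mean of 1.17 and 0.88 in samples 1 and 2), *Pnoc* (0.57 and 0.52) and *Chgb* (0.34 and 0.35) were higher in both. *Penk* (0.24 and 1.03) was higher mainly in sample 2 and *Cort* (1.28 and -0.25) only in sample 1. *Crh* (0.42 and -0.12) and *Nts* (-0.06 and 0.78) also differed in sign between the samples, and *Pdyn* (-0.41 and -0.03) was lower mainly in sample 1. *Tac2* (-0.32 and -0.57) and *Scg3* (-0.13 and -0.49) were lower in both. The 17 activity-regulated genes had a median difference of -0.26 in sample 1 and 2.07 in sample 2. Of these 17, 5 were called UP, *Bdnf*, *Nptx2*, *Inhba*, *Scg2* and *Vgf*, which were higher in both samples. Without sample 2 these 5 were still UP, and 7 others were DOWN. The part of neuronal activity in the values of the 10 genes was not tested.

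For the 3 genes with the highest mean CPM, the closest patterns over the 4 samples were sought among the 16231 other genes tested, by Euclidean distance of log2(CPM + 1) after centring. The nearest to *Chgb* were *Trhr2*, *Nostrin* and *Tbkbp1* at distances from 0.0593 to 0.0765. The nearest to *Scg3* were *Stk10*, *Wwp2* and *Rimbp3* at distances from 0.0203 to 0.0260. The nearest to *Penk* were *Arhgap40*, *Odc1* and *Itpkc* at distances from 0.0332 to 0.0826. The added 1 shrinks the differences of genes at low levels such as *Arhgap40*.

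Other genes of the neuropeptide system were taken from lists and read against the same shares of all genes. Of 50 other neuropeptide precursors, 26 passed the filter on low counts. Their median log2 fold change was 0.02, with 2 called UP and 1 called DOWN. The 3 with the highest mean CPM were *Cck*, *Npy* and *Vgf*. *Cck*, for cholecystokinin, was at 256.5 and 283 CPM in control and at 296 and 248 CPM in *Ash1L* shRNA samples (log2 fold change 0.01). *Npy*, for neuropeptide Y, had a log2 fold change of 0.15 with overlapping groups. *Gal*, the precursor of galanin, was called UP from 1 and 3 counts in control to 29 and 22 counts in *Ash1L* shRNA samples (adjusted p = 0.240, edgeR's quasi-likelihood test).

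Of the 11 granins and dense-core vesicle genes, which do not include *Chgb* or *Scg3*, 2 were UP and 1 was DOWN. *Scg2*, for secretogranin II, was at 318 and 215 CPM in control and at 589 and 986 CPM in *Ash1L* shRNA samples (log2 fold change 1.56, standard error 0.30). *Vgf*, for a granin-like precursor that is induced by nerve growth factor, was at 107 and 78.9 CPM in control and 142 and 275 CPM in *Ash1L* shRNA samples (log2 fold change 1.17). Both were higher in both *Ash1L* shRNA samples and highest in sample 2. These lists share genes: *Scg2* and *Vgf* are also in the activity-regulated list, and *Vgf* is also counted among the other neuropeptide precursors. *Ptprn2*, for a protein of the vesicle membrane, was DOWN (log2 fold change -0.28), and *Cadps*, for a priming factor of these vesicles, had a log2 fold change of 0.07. *Chga*, for chromogranin A, was not called either, with a log2 fold change of -0.05.

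Among 16 genes for enzymes that process or degrade peptides, 1 was UP and 3 were DOWN, the median log2 fold change being 0.01. *Pam*, for the amidating enzyme, was UP, at 509 and 346 CPM in control and 673 and 705 CPM in *Ash1L* shRNA samples (log2 fold change 0.69, standard error 0.19). The convertase gene *Pcsk2* was DOWN (log2 fold change -0.59), at 532 and 690 CPM in control and 494 and 319 CPM in *Ash1L* shRNA samples. *Pcsk1*, for the other main neuronal convertase, had a log2 fold change of 0.56, was highest in *Ash1L* shRNA sample 2 at 167 CPM and was not called. *Cpe*, for carboxypeptidase E, was the most abundant of the list, between 1723 and 1863 CPM, with a log2 fold change of -0.08. *Mme*, for the peptide-degrading enzyme neprilysin, and *Pcsk6* were DOWN with log2 fold changes of -1.05 and -0.51.

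Of 22 receptors and binding proteins for peptides of the 10 genes, 2 were UP (*Crhbp* and *Tacr2*) and 2 were DOWN (*Ntsr2* and *Sort1*), the median log2 fold change being -0.12. The sorting receptor *Sorl1*, the most abundant of them, was at 711 and 669 CPM in control and 808 and 815.5 CPM in *Ash1L* shRNA samples (log2 fold change 0.23) and was not called. Adjusted p-values in edgeR's quasi-likelihood test lay above 0.05 for every gene of these lists. Without *Ash1L* shRNA sample 2, calls that were absent with all samples were gained in each of these 4 lists. The calls of *Sst*, *Ptprn2* (log2 fold change -0.27) and *Pcsk2* (-0.30) were lost among the genes called with all samples. Among those still called, log2 fold changes were smaller in size for *Scg2* (1.15), *Vgf* (0.62), *Ntsr2* (-0.65), *Sort1* (-0.48), *Mme* (-0.93) and *Pam* (0.66). Those of *Gal* (3.64), *Tacr2* (2.15), *Crhbp* (1.19) and *Pcsk6* (-0.64) were as large or larger.

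**Figure D4:**
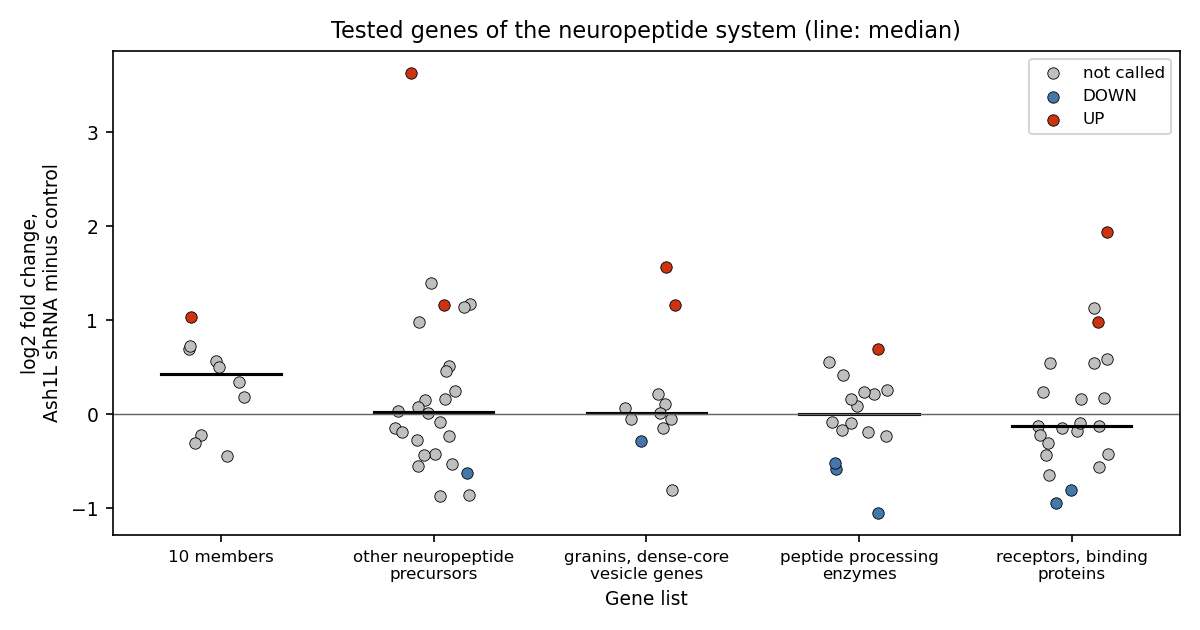
Log2 fold change of every tested gene in the 10-gene list and in 4 lists of the neuropeptide system, with UP genes in red, DOWN genes in blue, genes that were not called in grey and a line at the median. The medians of the other lists lie between -0.12 and 0.02, and *Gal* and *Tacr2* are the highest points.

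Markers of the neurons that hold these peptides were counted in the same way. Of 13 interneuron markers, which include *Sst*, *Npy* and *Vip*, 6 were DOWN and 0 were UP, with sums of 1409 and 1375 CPM in control and 1151 and 1060 CPM in *Ash1L* shRNA samples. Of 10 excitatory neuron markers, 4 were DOWN and 0 were UP, with sums of 1444 and 1597 CPM in control and 1308 and 1114 CPM in *Ash1L* shRNA samples. *Vip* was at 46.9 and 44.4 CPM in control and at 44.2 and 23.5 CPM in *Ash1L* shRNA samples and was not called. Among oligodendrocyte markers 1 of 7 was DOWN, among endothelial markers 1 of 6 was UP, and among microglia markers 0 of 7 were called. Without *Ash1L* shRNA sample 2, 5 interneuron markers were DOWN and 1 was UP, 4 excitatory and 4 astrocyte markers were DOWN, and 4 microglia markers were UP. *Sst*, *Neurod6* and *Slc1a2* lost their calls. The part of any of these cells in the values of the 10 genes was not tested.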

How the data were processed

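Paired-end reads of stranded, rRNA-depleted libraries were mapped by the authors with STAR (mm10) and assigned to genes by featureCounts according to the paper, while the sample labels name Cutadapt and TopHat2. Strand and multiple-mapping settings are not given in the sources used here. The values they deposited are raw read counts for 23420 gene symbols in each of 4 samples, from 14251190 to 35764874 in total, so counting error was largest in control sample 1. The samples are described as pools of mice in the methods, but the series text counts fewer mice than such pools need. The p-values measure the spread between samples, whether these are pools or single mice.

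Counts were filtered with filterByExpr and scaled by TMM, and all 16232 remaining genes were tested together with the quasi-likelihood F test of edgeR 4.0.16 (glmQLFit with robust estimation, R 4.3.3), *Ash1L* shRNA against control, and p-values were adjusted by Benjamini-Hochberg. The limits of UP and DOWN follow the definition in the paper. Standard errors are the absolute log2 fold change over the root of F, and intervals use its degrees of freedom. CPM are TMM-normalized, and RPKM also divide by exonic length in GENCODE vM21. The fit was tested on simulated data. Replicates differed beyond counting error (chi-square per degree of freedom 15.5 in control, 44.6 in *Ash1L* shRNA samples), so none is a repeat of another library.

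Alternatives were upper-quartile, RLE and library-size scaling, DESeq2 1.42.0, the likelihood ratio test of edgeR, filters of 1 count in any and 10 counts in every sample, a 1.5-fold limit, the replicate number as a block, and each sample left out in turn. The other gene lists were refitted without *Ash1L* shRNA sample 2, an alternative added after seeing the data. The genes, lists and tests were chosen with earlier results of these data known. Besides the 10 genes, the text names, by rule, the 3 genes with the highest mean CPM and the called genes of each list, and the nearest patterns of 3 genes. Of the cell type lists, only the genes needed beside a result are named. A result that the rule would name is not reported here. Genes named outside this rule, such as receptors of the 10 genes that were not called, were chosen after their values were seen. *Drd1* and *Uts2b* are listed in the tables under older symbols.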

Additional observations from a re-analysis of the deposited data

How the results depend on the processing

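Of 130 refits of single genes under the alternatives, 117 kept the direction and the call, 10 passed the limits for UP or DOWN where the reported value did not, and 3 changed direction. With 1 sample left out, *Cort* ran from -0.24 and *Crh* from -0.12 (both without *Ash1L* shRNA sample 1) to 1.30 and 0.43 (without *Ash1L* shRNA sample 2), and *Nts* from -0.082 (without control sample 2) to 1.15 (without control sample 1). Of the 10 genes, 2 were UP under upper-quartile scaling, DESeq2, the likelihood ratio test and the crossed pairing (in each case *Adcyap1* and *Penk*), where 9.33%, 7.55%, 8.72% and 9.49% of all genes were UP. Between 1 and 3 were UP when 1 sample was left out, beside 2.57% to 14.4% of all genes. Between 0 and 1 were DOWN when 1 sample was left out, beside 1.86% to 16.5%, and 1, *Scg3*, with the crossed pairing, beside 10.7%. The median log2 fold change ran from 0.0979 to 0.807 when 1 sample was left out. The cause of these changes was not tested.

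Groups share replicate numbers, but same-numbered samples did not deviate together (correlation -0.15), so the numbers are not taken as pairs. With the replicate number as a block, *Adcyap1* had a log2 fold change of 1.03 and remained the only gene called UP, 0 were DOWN, and no call changed among the 10. Over all genes tested, the block gave 1020 DOWN and 1052 UP, against 1344 and 1397 without it, and 0 genes had an adjusted p under 0.05, against 1. The crossed pairing, added after that correlation was seen, gave 1736 DOWN and 1541 UP. With 1 sample left out, DOWN genes numbered from 306 (without control sample 2) to 2718 (without *Ash1L* shRNA sample 1) and UP genes from 423 to 2368. A 1.5-fold limit gave 491 DOWN and 765 UP. Genes with an adjusted p under 0.05 numbered 421 with DESeq2, 479 with the likelihood ratio test, 34 with the filter of 1 count, 16 with the crossed pairing, 2502 without *Ash1L* shRNA sample 1, 36 without *Ash1L* shRNA sample 2 and 0 without either control sample. With 1 sample left in a group, that sample is assumed to vary like the others. Depth limits *Nts* most, at 15 to 27 counts.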
